A study of Mus musculus with 90 samples.

Results

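Expression of 9 imprinted genes was followed over 15 tissues of female mice in estrus and in diestrus: Grb10, Cdkn1c, Plagl1, Peg3, Ndn, Magel2, Dlk1, Nnat and Mest. Each gene was chosen by name and found in the expression table by its Entrez identifier, which gave 9 of 20414 listed genes. The identifiers were 14783 for Grb10, 12577 for Cdkn1c, 22634 for Plagl1, 18616 for Peg3, 17984 for Ndn, 27385 for Magel2, 13386 for Dlk1, 18111 for Nnat and 17294 for Mest. The mice were C57BL/6 females of 10 weeks by the sample labels (the study's methods give C57BL/6J and a younger age), untreated and with no engineered allele, and were put into 2 groups, estrus and diestrus, by staining of vaginal secretions. The tissues were aorta, brown adipose tissue, cerebrum, duodenum, heart, hypothalamus, kidney, liver, muscle, ovary, spleen, stomach, vein, white adipose tissue and womb (the label for uterus), and each gave 3 estrus and 3 diestrus libraries, which makes 90. The tissues of a phase were dissected from the same mice, but the labels do not say which libraries share a mouse, and the tests between tissues treat libraries as independent. Values are FPKM, fragment counts scaled to transcript length and to the size of the library, so levels of different genes can be set side by side per length.

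Imprinted genes are expressed mainly from the allele of one parent. The choice of allele is laid down as DNA methylation in the germ line at imprinting control regions, most imprinted genes lie in clusters that share such a region, and many of them act on growth, placenta, brain and metabolism. Because the mice are of one inbred strain and the values are sums over a gene, neither the parental allele nor the promoter in use can be read from these data. In bulk tissue, fewer cells of a type and less RNA per cell cannot be told apart.

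RefSeq promoters of build GRCm38.p6, reaching from 250 bases before to 50 after a transcript's start, were found for 8 of the 9 genes in 11 entries. Runs of letters were counted on both strands in these and in all 32851 promoters of the same table. Promoters of the genes held 8 to 45 CpG dinucleotides with a median of 13, against a median of 7 over all promoters. The 4 promoters shown here belong to genes with their highest mean in the hypothalamus: the neighbours Ndn and Magel2, whose starts lie 28702 bases apart, and Nnat and Peg3, which lie in other clusters. Capitals mark the letters GCATGCGC, the core of the binding motif of nuclear respiratory factor NRF1, or their reverse complement. This run of letters was chosen after the sequences had been seen and was found in 2.71% of all promoters.
Ndn, chr7:62348027-62348326, plus strand: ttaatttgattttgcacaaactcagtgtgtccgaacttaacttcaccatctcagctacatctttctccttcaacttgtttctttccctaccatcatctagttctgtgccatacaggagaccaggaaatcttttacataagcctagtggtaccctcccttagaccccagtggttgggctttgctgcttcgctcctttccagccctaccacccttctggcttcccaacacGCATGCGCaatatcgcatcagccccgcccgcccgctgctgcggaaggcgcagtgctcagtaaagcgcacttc
Magel2, chr7:62376729-62377028, plus strand: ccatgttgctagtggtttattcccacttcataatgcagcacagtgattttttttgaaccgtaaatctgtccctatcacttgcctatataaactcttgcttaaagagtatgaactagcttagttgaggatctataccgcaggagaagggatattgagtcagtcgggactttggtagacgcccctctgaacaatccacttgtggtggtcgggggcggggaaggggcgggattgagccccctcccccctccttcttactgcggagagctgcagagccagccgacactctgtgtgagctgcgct
Nnat, chr2:157559828-157560127, plus strand: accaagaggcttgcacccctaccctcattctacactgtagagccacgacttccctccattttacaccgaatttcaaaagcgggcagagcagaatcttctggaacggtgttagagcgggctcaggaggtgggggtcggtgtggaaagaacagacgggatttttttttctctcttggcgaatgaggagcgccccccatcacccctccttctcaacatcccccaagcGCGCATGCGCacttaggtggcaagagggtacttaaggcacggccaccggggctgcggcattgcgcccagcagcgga
Peg3, chr7:6730370-6730669, minus strand: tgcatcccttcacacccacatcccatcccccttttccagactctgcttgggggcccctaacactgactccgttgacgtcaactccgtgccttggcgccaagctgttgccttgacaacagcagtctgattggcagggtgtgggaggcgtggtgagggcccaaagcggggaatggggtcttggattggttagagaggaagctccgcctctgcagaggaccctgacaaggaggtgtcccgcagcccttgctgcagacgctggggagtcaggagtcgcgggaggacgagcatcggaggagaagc
Among the 11 entries the core was found in Ndn and in Nnat, where the match on each strand overlaps the other, and it began 22 bases before the start in Ndn and 26 before it in Nnat. The letters TATAAA of a TATA box stood in Magel2 among these entries, but far upstream of where such a box lies, and in 13.6% of all promoters. The letters TGCCGC, which the zinc finger protein ZFP57 binds when methylated, stood in entries of Nnat, Mest, Plagl1 and Grb10 and in 11.6% of all promoters. The YY1 core, CCATNTT, stood in entries of Nnat, Magel2 and Grb10 and in 16.1% of all promoters. A match is a description of letters and shows no binding.

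By the smallest steps between values, 89 libraries held approximately 8.78M to 17.4M reads. Brown adipose tissue estrus 3 held approximately 0.075M, and 12048 genes were listed at 0 in it against 2404 to 4820 elsewhere. In that library a read was worth 1.54 FPKM for Peg3 and 9.41 for Nnat, so its values of Plagl1, Dlk1 and Mest, all 0, say little. Tissue labels were checked against summed markers, and the list of the labelled tissue was highest in spleen for B cells, in liver for hepatocytes, in kidney for nephron tubule, in heart for cardiomyocytes, in muscle for skeletal muscle fibres and in both adipose tissues for their own adipocytes. Markers of another cell type stood apart in 8 further libraries. Ovary estrus 3 was not counted among these, although its oviduct markers summed to 1665 FPKM. Smooth muscle markers were highest in vein and then aorta, and the 3 oviduct markers in womb. The list for uterine epithelium was highest in stomach (2034 as a median) and then duodenum (1655), above womb (1097), and that for choroid plexus was highest in liver (4450).

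The hypothalamus held the highest mean of 6 of the 9 genes: Grb10, Peg3, Ndn, Magel2, Dlk1 and Nnat. Of 17289 genes that reached 1 FPKM as a tissue mean, 11.5% had their highest mean there. Cdkn1c was highest in brown adipose tissue, Plagl1 in ovary and Mest in vein. Liver was the lowest tissue for 6 of the genes, Grb10, Cdkn1c, Plagl1, Ndn, Dlk1 and Nnat. Tissue accounted for 90.2% to 98.0% of the sum of squares of log2(FPKM + 1) over the 90 libraries, and the differences between phases within tissues for 0.556% to 3.51%.

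**Figure D1:**
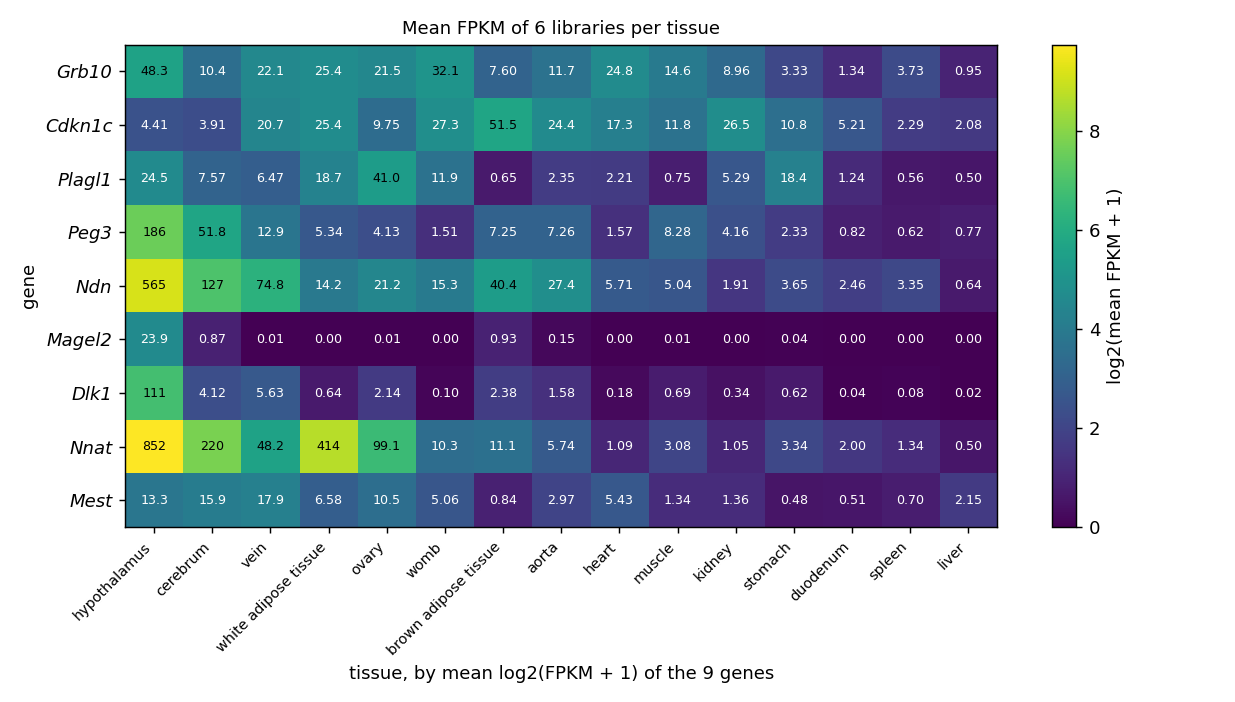
Mean FPKM of each gene (rows) in each tissue (columns), with color giving log2(mean FPKM + 1) over 6 libraries. The hypothalamus column holds the highest value of 6 genes, from 23.9 FPKM for Magel2 to 852 for Nnat, and Magel2 is below 1 FPKM in each of the other tissues.

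Ndn and Magel2 are neighbours of the Prader-Willi region and encode proteins of the MAGE family, which bind E3 ubiquitin ligases. Their tissue ranges differed. Ndn ranged from 533 through a median of 551 to 644 FPKM in hypothalamus, and its mean of 565 was followed by cerebrum at 127, vein at 74.8, brown adipose tissue at 40.4, aorta at 27.4 and ovary at 21.2. The first 4 steps of this order exceeded the spread between libraries in exact two-sided permutation tests of 6 against 6 libraries, with adjusted p of 0.01615 for the first 3 and 0.04845 for brown adipose tissue against aorta. The smallest p that such a test can give is 0.002165 before adjustment, over 97 tests. Ndn was present at 14.2 FPKM in white adipose tissue and below 6 in the 7 tissues from heart to liver, where its mean was 0.637.

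Magel2 was measured from 22.2 through 24.1 to 25.7 FPKM in hypothalamus, and no other tissue reached a mean of 1. The next mean, 0.932 in brown adipose tissue, included 2.86 in the library of few reads, which corresponds to 0.987 reads, and the other 5 libraries there held 0.19 to 0.84. Cerebrum followed with 0.34 to 2.21, and Magel2 was listed at 0 in all libraries of duodenum, heart, liver, spleen and white adipose tissue. The 3 genes of the table most like Magel2 over the 15 tissue means of log2(FPKM + 1) were Sox14 (Pearson's r = 0.984), Gm14685 (0.984) and 6430628N08Rik (0.983), all highest in hypothalamus. For Ndn they were Katnal2 (0.954), Pcdhga6 (0.949) and Pcdhga4 (0.948). These correlations are over tissues, with the choice made among 17289 genes, and are a description only.

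Peg3 and Plagl1 encode zinc finger transcription factors, of which Plagl1 regulates other imprinted genes and cell cycle arrest. Peg3 reached 166 to 199 FPKM in hypothalamus with a median of 192, and its mean of 186 stood 3.6 times above the 51.8 of cerebrum (adjusted p = 0.01615, exact permutation test). Vein at 12.9, muscle at 8.28, aorta at 7.26 and brown adipose tissue at 7.25 came next and were not separated from each other step by step, and spleen was lowest at 0.623. Plagl1 had another pattern: its 6 ovary libraries held 33.5 to 53.2 FPKM with a median of 39.9, all above the highest hypothalamus library at 27.9. White adipose tissue followed hypothalamus with a mean of 18.7 and stomach with 18.4. Single libraries weighed on both means. White adipose tissue estrus 1 held 36.9 against 12.5 to 17.2 in the other 5, with smooth muscle markers summing to 2589 FPKM against 108 to 273 and fibroblast markers to 2164 against 398 to 889. All 5 genes of each list were highest there, and their part in the value was not tested. In stomach, Plagl1 was 31.9, 6.6 and 41.3 in estrus and 16.4, 7.44 and 6.46 in diestrus, with summed smooth muscle markers of 5230, 263 and 1873 in estrus and 1408, 605 and 599 in diestrus. Squamous epithelium markers summed to 4232, 96.9 and 7342 in estrus and 993, 442 and 1.87 in diestrus. Their order over the libraries was that of Plagl1. The part of both lists in the stomach values was not tested. Among the genes most like Peg3 were Lrrc24 (r = 0.952) and Ric3 (0.944), and most like Plagl1 were Map4k3 (0.878), Srgap1 (0.871) and Cachd1 (0.87).

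Dlk1, Nnat and Mest encode membrane-bound regulators of differentiation and metabolism. Dlk1 (also Pref-1) is a transmembrane protein with EGF-like repeats that restrains adipocyte differentiation and marks neuroendocrine cells. It was 92.9 to 127 FPKM in hypothalamus with a median of 112, 19.8 times the 5.63 of vein, and a mean of 1 FPKM was also passed in cerebrum (4.12), brown adipose tissue (2.38), ovary (2.14) and aorta (1.58). White adipose tissue held 0.4 to 0.76. Genes most like it were Arhgap36 (r = 0.963), Vwa5b1 (0.962) and Gprin2 (0.958).

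Nnat, a small proteolipid of the endoplasmic reticulum, had the highest tissue mean of the 9 genes and was the most abundant of them in hypothalamus, white adipose tissue, cerebrum and ovary. It held 785 to 1003 FPKM in hypothalamus with a median of 838, followed by white adipose tissue with a mean of 414, cerebrum with 220 and ovary with 99.1. Hypothalamus and white adipose tissue did not overlap, while white adipose tissue and cerebrum, and cerebrum and ovary, were not separated (adjusted p = 0.340 and 0.0724, exact permutation tests). Nnat varied widely between libraries of a tissue. The white adipose libraries held 648, 349 and 369 in estrus and 514, 65.6 and 537 in diestrus, so diestrus 2 stood alone at the low end. In womb, estrus 3 held 40.7 and the other 5 libraries 2.93 to 5.35. The 3 oviduct markers, Ovgp1, Foxj1 and Tmem212, summed to 2876 FPKM in that womb library and to 24.1 to 127 in the others. Squamous epithelium markers summed to 753.6 in it against 2.61 to 33.99, and pituitary markers to 67.65 against 4.75 to 7.06. The part of these lists in the value was not tested. Nnat lies within an intron of Blcap on the other strand, and a use of strand in counting is not given in the sources used here, so reads of both may be mixed. Blcap was highest in the same pair of tissues, hypothalamus at 88.5 and white adipose tissue at 83.1. Among the genes most like Nnat were Tmem202 (r = 0.957) and Kcnk2 (0.939).

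Mest, an enzyme of the alpha/beta hydrolase fold linked to adipocyte size, had few steps in its order that exceeded the spread between libraries. Vein held 11.7 to 24.5 FPKM with a median of 18.6, cerebrum 13.98 to 19.3 with a median of 15.8 and hypothalamus 9.75 to 25.8 with a median of 10.9. These 3 tissues and ovary (mean 10.5) were not separated from each other step by step, and of the 11 neighbouring pairs only liver and kidney were (adjusted p = 0.04845, exact permutation test). Hypothalamus estrus 2 held the 25.8, with the other 5 at 9.75 to 12.5. That library also held the highest Nnat, 1003, and pituitary markers summing to 31938 FPKM against 42.8 to 400, with Prl at 21607, Gh at 9200 and all 7 genes of the list highest in it. Their part in the values was not tested. Mest overlaps Copg2 at its end, so that reads there may be shared. Klhl13 (r = 0.933), Vash1 (0.905) and Gm1673 (0.9) were most like it.

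Grb10 and Cdkn1c restrain growth. Grb10 is an adaptor that dampens insulin and IGF receptor signalling, and Cdkn1c (p57Kip2) inhibits cyclin-dependent kinases. Grb10 was measured at 46.2 to 52.2 FPKM in hypothalamus, with a median of 47.6, and at 9.55 to 46.2 in womb, and it was spread broadly, with 9 tissues at a mean of 10 or more. Between womb (mean 32.1), white adipose tissue (25.4), heart (24.8), vein (22.1) and ovary (21.5) no step was larger than the spread between libraries. Ovary and muscle (14.6) were separated, as were brown adipose tissue (7.6) and spleen (3.73), both with an adjusted p of 0.01615 in exact permutation tests. Cdkn1c was the one gene of the list found at a mean above 1 in all 15 tissues. It reached 26.6 to 71.6 FPKM in brown adipose tissue with a median of 52.1, and 19.02 to 39.3 in womb with a median of 23.4. The step from brown adipose tissue to womb missed the threshold after adjustment (adjusted p = 0.0675, exact permutation test). Both brain tissues were among its lower ones, with 4.41 in hypothalamus and 3.91 in cerebrum. Zfp449 (r = 0.927), Nenf (0.92) and Prrg1 (0.909) were most like Grb10, and Rsph3a (0.946), Rsph3b (0.899) and Spry1 (0.898) most like Cdkn1c. Rsph3a and Rsph3b are near-identical copies and their split of reads is uncertain.

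Across tissues, Peg3, Ndn, Magel2 and Dlk1 had r of 0.726 to 0.915 over the 15 tissue means. All of these share the same 90 libraries, and without hypothalamus and cerebrum the range over 13 tissues was 0.345 to 0.852. With Nnat in place of Magel2 the ranges were 0.741 to 0.902 and 0.531 to 0.852. Cdkn1c showed r of -0.231 to 0.439 with the other 8 genes over 15 tissues, and 0.275 to 0.682 without both brain tissues. Of 97 neighbouring pairs of tissues in the 9 orders whose higher tissue had a mean of at least 1 FPKM, 26 were separated at an adjusted p of at most 0.05.

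A list of 60 other imprinted genes, by cluster, was set beside these, and 53 were found in the table. Meg3, Rian, Mirg, Kcnq1ot1, H19, Airn and Zfp264 were not listed and are not analysed here. Of the 51 with a mean of at least 1 FPKM in some tissue, 19 were highest in hypothalamus. Near Peg3, Zim1 (13.3 FPKM) and Usp29 (33.0) were highest there and next in cerebrum, with 1.11 and 7.23. Near Ndn and Magel2, Snrpn was at 426 in hypothalamus and 415 in cerebrum, while Mkrn3 and Peg12 did not pass 1.1 in any tissue mean. Near Grb10, Ddc, the decarboxylase of dopamine and serotonin synthesis, was highest in vein at 117, and Cobl in duodenum at 33.8. Near Cdkn1c, Phlda2 (18.8) and Slc22a18 (301) were highest in kidney, and near Mest, Copg2 (23.4) was highest in hypothalamus.

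Hypothalamus against cerebrum asked how the list differed between the brain tissues. Of the 9 genes, 7 were higher in hypothalamus, 0 were higher in cerebrum and 2, Cdkn1c and Mest, were not called by limma, where a call took an absolute log2 fold change of 1 or more on log2(FPKM + 1) and an adjusted p of at most 0.05. Over all 13280 genes tested, 4.73% were called higher in hypothalamus and 4.25% higher in cerebrum. The log2 fold change was 4.80 ± 0.32 (SE) for Dlk1, with 92.9 to 127 FPKM in hypothalamus and 1.06 to 12.7 in cerebrum (adjusted p = 5.17e-08). Magel2 followed with 3.80 ± 0.16, then Ndn with 2.17 ± 0.12, Nnat with 2.14 ± 0.28, Grb10 with 2.13 ± 0.10, Peg3 with 1.83 ± 0.08 and Plagl1 with 1.59 ± 0.10. The highest adjusted p of these was 2.21e-05, for Nnat. No cerebrum library of any of the 7 reached the lowest hypothalamus library. Cdkn1c differed by 0.16 ± 0.19 (adjusted p = 0.478) and Mest by -0.32 ± 0.18 (0.14). The median of the 9 genes was 2.13 and that of all genes 0.17. Summed neuron markers were higher in cerebrum, with a median of 2804 FPKM against 1874 in hypothalamus. Of the 41 other imprinted genes tested, 10 were higher in hypothalamus and 0 in cerebrum, led by Peg10 (3.88 ± 0.20), Calcr (3.51 ± 0.09) and Asb4 (3.51 ± 0.09).

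**Figure D2:**
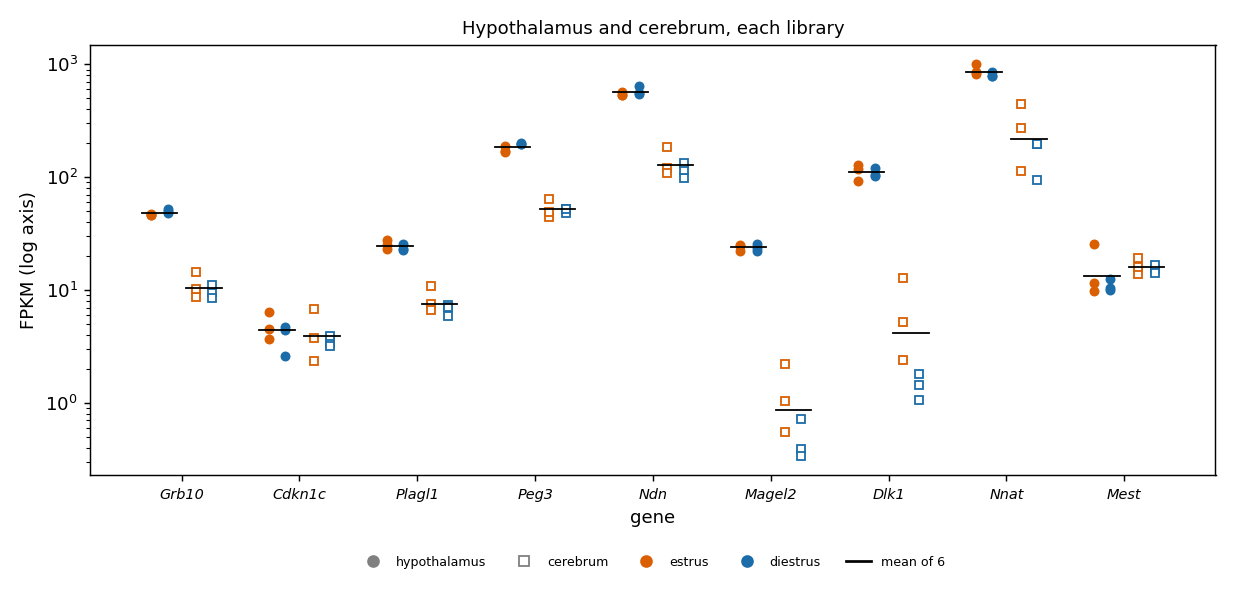
FPKM on a log axis of each gene in 6 hypothalamus libraries (filled circles) and 6 cerebrum libraries (open squares), colored by phase, with lines at the means. The tissues do not overlap for Grb10, Plagl1, Peg3, Ndn, Magel2, Dlk1 and Nnat, and they overlap for Cdkn1c and Mest.

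Brown against white adipose tissue split the list. White adipose tissue was higher for 4 of 8 genes tested, Nnat, Plagl1, Mest and Grb10, and brown adipose tissue for 1, Ndn. Over 11783 genes, 15.1% were higher in white and 7.07% higher in brown adipose tissue. Nnat held 4.4 to 29.6 FPKM in brown and 65.6 to 648 in white adipose tissue, a log2 fold change of -5.16 ± 0.60 (adjusted p = 2.87e-05). Plagl1 was 0 to 0.94 against 12.5 to 36.9 (-3.52 ± 0.26), and no libraries overlapped. Mest differed by -2.0 ± 0.28 and Grb10 by -1.65 ± 0.14. Ndn was the reverse, with 32.4 to 49.2 in brown and 11.1 to 19.9 in white adipose tissue (1.46 ± 0.15, adjusted p = 9.15e-06). In brown adipose tissue the 4.4 of Nnat, the 0 of Plagl1 and the 49.2 of Ndn come from the library of few reads. They stand for approximately 0.468, 0 and 13.5 reads. Cdkn1c (0.95 ± 0.24, adjusted p = 0.0071) and Dlk1 (0.89 ± 0.31, 0.0316) passed the p but not the fold. Without the library of few reads Dlk1 was called, at 1.19, and without it and white adipose tissue estrus 1 so was Cdkn1c, at 1.11, which made 7 of 8. With each of the 12 libraries left out in turn, Cdkn1c was called in 3 cases, with log2 fold changes of 0.77 to 1.1. Peg3 differed by 0.35 ± 0.28 (adjusted p = 0.321). Among 28 other imprinted genes 2 were higher in brown and 5 in white adipose tissue, with Gnas (2.41 ± 0.12), Slc22a18 (-1.44 ± 0.45) and Slc22a2 (1.33 ± 0.27) the most different.

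Ovary against womb compared the reproductive tissues. Ovary was higher for 5 of 8 genes, Nnat, Plagl1, Dlk1, Mest and Peg3, and womb for 1, Cdkn1c, against 10.4% of 14035 genes higher in ovary and 8.66% higher in womb. Nnat held 63.1 to 160 FPKM in ovary and 2.93 to 40.7 in womb (log2 fold change 3.72 ± 0.51, adjusted p = 0.000119). Plagl1 held 33.5 to 53.2 against 8.2 to 14.6 (1.70 ± 0.14), without overlap. Dlk1 differed by 1.45 ± 0.22, Mest by 1.32 ± 0.41 and Peg3 by 1.05 ± 0.17. When each of the 12 libraries was left out in turn, Mest was called in 7 cases and Peg3 in 10, with log2 fold changes down to 0.99 and 0.96, and without womb estrus 3 and its oviduct markers 5 genes were called in all. Ovary estrus 3, which stayed in that count, held oviduct markers as well, at 1665 FPKM against 2.91 to 47.6 in the other ovary libraries. Their part in the differences was not tested. Cdkn1c was 6.08 to 12.4 in ovary and 19.02 to 39.3 in womb (-1.37 ± 0.22, adjusted p = 0.000393). Ndn (0.49 ± 0.17) and Grb10 (-0.38 ± 0.32) were not called. Of 35 other imprinted genes, 5 were higher in ovary and 3 in womb, led by Nap1l5 (5.63 ± 0.23), Slc22a18 (-2.68 ± 0.34) and Peg10 (2.32 ± 0.27).

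Aorta against vein had 5 of 8 genes higher in vein and 0 higher in aorta. Of 13225 genes, 9.12% were higher in vein and 1.84% higher in aorta. Nnat held 29.3 to 74.8 FPKM in vein and 3.48 to 7.39 in aorta (log2 fold change -2.84 ± 0.23, adjusted p = 2.3e-06). Mest held 11.7 to 24.5 against 1.23 to 4.33 (-2.26 ± 0.15), and Ndn 50.2 to 92.8 against 16.3 to 37.0 (-1.43 ± 0.13). No libraries of these genes overlapped. Dlk1 differed by -1.38 ± 0.14 and Plagl1 by -1.18 ± 0.21. Grb10 (-0.88 ± 0.17) and Peg3 (-0.77 ± 0.23) passed the p but not the fold, and Cdkn1c differed by 0.22 ± 0.17 (adjusted p = 0.397). Without aorta estrus 1, Grb10 was called at -1.04, which made 6. Under quantile normalization 3 were called, Plagl1 moving to -0.84 and Dlk1 to -0.98. The vein libraries also held neuron markers, which summed to 586 to 1269 FPKM in vein and 5.6 to 20.4 in aorta. Of the 8 genes, Rbfox3 was at 0.17 to 0.62 in vein. Th, at 173 to 402, and Dbh, at 337 to 745, both enzymes of noradrenaline synthesis, were high in vein, while Pnmt, which makes adrenaline, was at 0 to 0.39 and the 4 adrenal cortex markers summed to 2.6 to 7.1. Their part in the difference was not tested. Of 34 other imprinted genes 7 were higher in vein and 1 in aorta, led by Ddc (-6.48 ± 0.19), Nap1l5 (-3.30 ± 0.30) and Snrpn (-2.07 ± 0.19).

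Heart against muscle showed 1 gene called in each direction of 7 tested. Over 11452 genes, 22.7% were higher in heart and 5.56% higher in muscle. Mest held 3.87 to 7.47 FPKM in heart and 0.79 to 1.8 in muscle (log2 fold change 1.45 ± 0.11, adjusted p = 4.69e-08), and Peg3 held 1.0 to 2.73 against 3.82 to 15.0 (-1.74 ± 0.19, adjusted p = 1.8e-06). Neither overlapped. Plagl1 (0.81 ± 0.18), Grb10 (0.72 ± 0.08) and Cdkn1c (0.51 ± 0.09) passed the p but not the fold. Ndn (0.15 ± 0.08) and Nnat (-0.64 ± 0.40) passed neither. Of 30 other imprinted genes, 8 were higher in heart and 3 in muscle, led by Kcnq1 (3.96 ± 0.07), Cd81 (2.24 ± 0.05) and Slc38a4 (-2.23 ± 0.14).

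**Figure D3:**
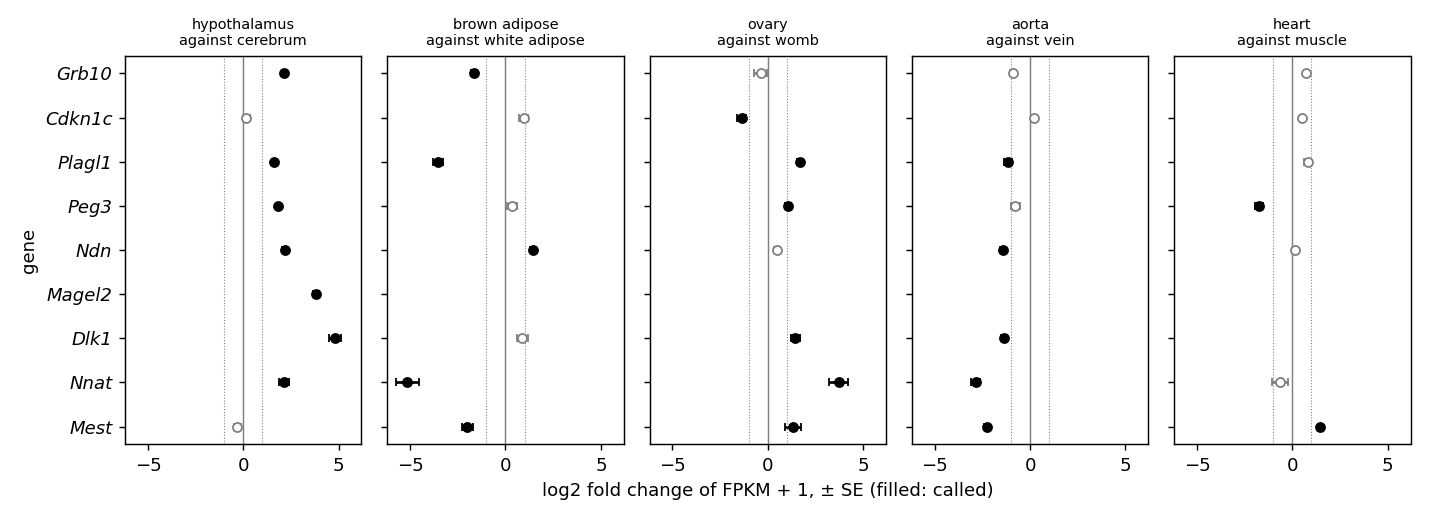
Log2 fold change of FPKM + 1 with its standard error for each gene that passed the filter in 5 comparisons of tissues, 6 libraries each, positive where the first tissue was higher. Filled points were called, 25 of 40 in all, and dotted lines mark the fold limit of 1.

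Estrus against diestrus was tested within each tissue. The filter, 1 FPKM as the mean of 6 libraries, was passed in 98 of 135 combinations of gene and tissue, and limma called 0 of the 98, as it called 0.00108% of all 185469 tests. At an unadjusted p of at most 0.05 there were 16, 4 higher and 12 lower in estrus, or 16.3%, against 7.84% of all tests. The phases did not overlap in 19, against 15% of all tests. The 16 tests share libraries, and 12 of them fell in 4 tissues. The lowest adjusted p was 0.121, and log2 fold changes ran from -1.42, for Mest in womb, to 1.46, for Dlk1 in cerebrum, with a median of 0.04. Over all genes the median lay between -0.162 in duodenum and 0.059 in white adipose tissue.

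In vein 4 of 8 genes had a p of at most 0.05, against 12.1% of all genes there. The estrus libraries held 16.7, 11.7 and 13.1 FPKM of Mest, against 20.9, 20.4 and 24.5 in diestrus (-0.64 ± 0.15 as log2 fold change, adjusted p = 0.412 by limma). Ndn held 79.4, 50.2 and 52.3 against 89.3, 84.8 and 92.8 (-0.58 ± 0.18), and Plagl1 5.8, 3.82 and 6.16 against 7.37, 8.77 and 6.91 (-0.49 ± 0.18), while Peg3 overlapped (-0.55 ± 0.19). The 3 diestrus libraries lay above the 3 of estrus for Mest, Ndn and Plagl1, and also for Grb10 (-0.24 ± 0.15, unadjusted p = 0.17 by limma). That made 4 of 8 genes without overlap, against 18.2% of all genes there. All 8 genes had a mean no higher in estrus. Summed neuron markers were 1144, 597 and 586 in estrus and 1204, 939 and 1269 in diestrus, with overlap. The 5 fibroblast markers summed to 898, 641 and 1023 in estrus and 1233, 1929 and 1143 in diestrus, without overlap. The part of both lists in these values was not tested.

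In muscle 4 of 6 genes had such a p, against 20.8% of all genes there. Peg3 stood at 15.0, 7.22 and 12.3 FPKM in the estrus libraries, against 4.08, 7.23 and 3.82 in diestrus (1.04 ± 0.29 as log2 fold change, adjusted p = 0.121 by limma), so estrus 2 and diestrus 2 were almost equal. Cdkn1c held 11.2, 10.5 and 9.47 against 12.9, 12.2 and 14.2 (-0.31 ± 0.09), Ndn 5.05, 4.29 and 4.16 against 5.43, 5.29 and 6.03 (-0.26 ± 0.09), and Mest 1.38, 0.79 and 0.93 against 1.8, 1.63 and 1.54 (-0.40 ± 0.13). These 3 were lower in each estrus library than in each diestrus one. So were the 5 summed fibroblast markers, with 174 to 286 FPKM in estrus and 303 to 357 in diestrus, and the 4 endothelium markers, with 49.3 to 74.15 against 79.0 to 83.6, and their part in these values was not tested. Without estrus 1, Mest had an adjusted p of 0.0351 at -0.51, below the fold limit.

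In hypothalamus 2 of 9 genes had such a p, against 13.2% of all genes there, and both changes were small. Peg3 stood at 166, 189 and 172 FPKM in the estrus libraries, against 195, 197 and 199 in diestrus (-0.17 ± 0.05 as log2 fold change, adjusted p = 0.282 by limma). Grb10 held 46.7, 46.2 and 47.1 against 52.2, 48.2 and 49.8 (-0.10 ± 0.04). Neither overlapped. Pituitary markers summed to 347.5, 31938 and 400 in estrus and 42.8, 66.6 and 361.2 in diestrus, and their part in these values was not tested. In brown adipose tissue 2 of 6 genes had such a p, against 12.8% of all genes there: Grb10 with 5.62, 6.45 and 5.6 against 7.99, 7.95 and 12.0 (-0.56 ± 0.22) and Cdkn1c with 52.5, 26.6 and 35.3 against 71.5, 51.6 and 71.6 (-0.79 ± 0.27). In both, the third estrus value comes from the library of few reads, 2.11 reads for Grb10 and 4.95 for Cdkn1c. The 4 endothelium markers summed to 153 to 188 in estrus and 229 to 267 in diestrus, without overlap, and their part in these values was not tested.

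Single genes reached such a p in 4 further tissues. In aorta, the estrus libraries held 16.3, 23.9 and 22.2 FPKM of Ndn, against 30.6, 34.2 and 37.0 in diestrus (-0.69 ± 0.19, adjusted p = 0.933 by limma), without overlap. Aorta estrus 1, the lowest, had smooth muscle markers of 15620 against 1670 to 2476, with 4 of the 5 genes highest in it, brown adipocyte markers of 617 against 4872 to 8093 and white adipocyte markers of 801 against 4361 to 9075. It also held the highest Grb10 (19.2 against 9.28 to 10.9) and Plagl1 (4.62 against 1.65 to 2.21). Over all aorta libraries, endothelium markers summed to 169.8, 224.8 and 219.7 in estrus and 284.6, 268.8 and 276.5 in diestrus, without overlap. The part of these marker lists in the values was not tested. Ndn differed by -0.54 when aorta estrus 1 was left out. In duodenum, Cdkn1c held 8.42, 7.23 and 4.79 in estrus and 4.24, 3.08 and 3.47 in diestrus (0.74 ± 0.24, adjusted p = 0.368). Duodenum estrus 1, the highest, had smooth muscle markers of 1986 against 203 to 515. Markers of proliferating cells summed to 45.8, 11.6 and 52.1 in estrus and 100.8, 83.8 and 70.7 in diestrus, without overlap. The part of both lists in the duodenum values was not tested. In heart, Peg3 held 1.56, 1.65 and 2.73 against 1.08, 1.0 and 1.39 (0.45 ± 0.16), also without overlap.

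In cerebrum, the estrus libraries held 2.42, 5.26 and 12.7 FPKM of Dlk1, against 1.06, 1.45 and 1.81 in diestrus (1.46 ± 0.46 as log2 fold change, adjusted p = 1 by limma). The estrus libraries lay above those of diestrus but spread widely among themselves. Estrus 3 also held the highest Magel2 (2.21), Nnat (446), Ndn (185), Grb10 (14.5), Plagl1 (10.9) and Mest (19.3) of the 6 cerebrum libraries. Cdkn1c, which was not called between hypothalamus and cerebrum, was highest in estrus 3 as well, at 6.85 against 2.36 to 3.9. The 6 hypothalamic peptide genes, Oxt, Avp, Hcrt, Pmch, Agrp and Trh, chosen after values were seen, summed to 5.7, 35.0 and 23.0 in estrus and 4.6, 3.4 and 4.4 in diestrus, against 1507 to 2048 in hypothalamus. Of these, Agrp was below 1 FPKM in every cerebrum library, as was Hcrt. The 7 pituitary markers summed to 21.45, 395 and 93.6 in estrus and 12.8, 15.4 and 53.5 in diestrus, and the 5 choroid plexus markers to 158 to 734 in estrus and 27.8 to 268 in diestrus. The 5 fibroblast markers were highest in estrus 3, at 57.8 against 15.2 to 36.8. The part of these lists in the values was not tested. Without estrus 3 the log2 fold change of Dlk1 was 0.93.

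Whether the phase difference varied between tissues was tested in one fit of all 90 libraries with 30 groups. Dlk1 was called (F = 3.55, adjusted p = 0.0161 by limma), and the other 8 genes were not, with adjusted p of 0.145 for Mest to 0.911 for Nnat. Of all 15226 genes 3.88% were called. Other genes were called when a replicate of all tissues was left out, Magel2 and Mest without estrus 1 (0.0114 and 0.0262) and Grb10, Ndn and Plagl1 without estrus 2 (0.00312, 0.0151 and 0.0203). Without the 9 libraries that stand apart Peg3 was called (0.0246) and Dlk1 was not (0.118). Dlk1 was no longer called without cerebrum estrus 3 (adjusted p = 0.0542), without cerebrum diestrus 1, without diestrus replicate 1, 2 or 3 of all tissues (0.57, 0.382 and 0.427) or with a pseudocount of 0.1 (0.184).

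**Figure D4:**
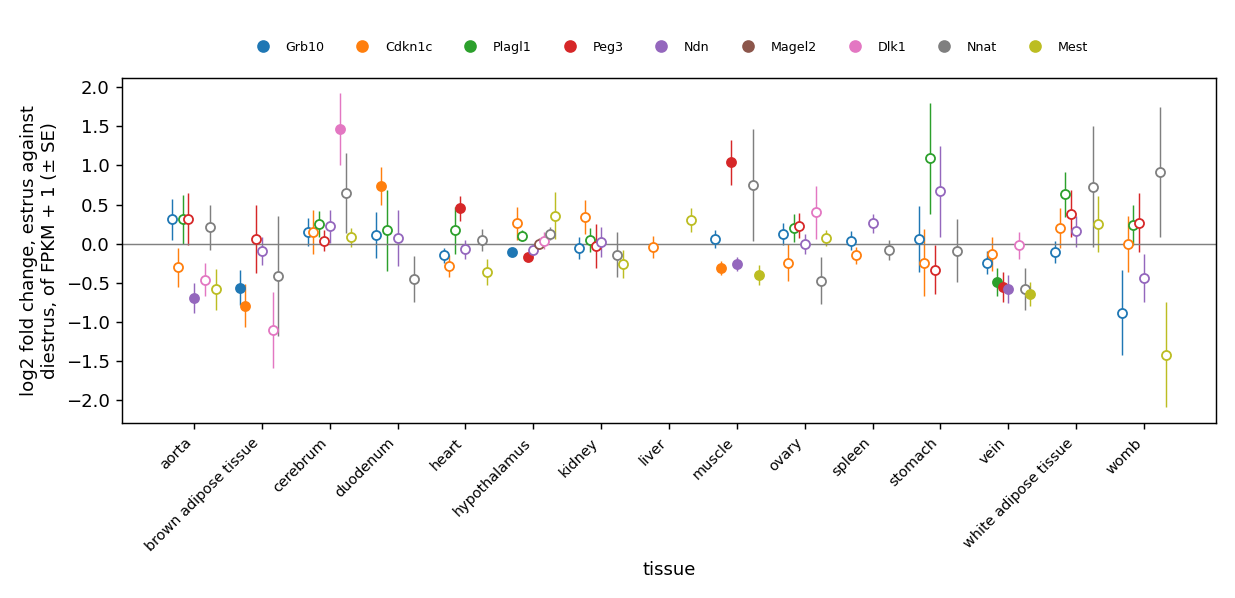
Log2 fold change of FPKM + 1 between estrus and diestrus with its standard error, by tissue, for the 98 combinations that passed the filter. Filled points have an unadjusted p of at most 0.05 by limma. The 16 filled points include 4 in vein and 4 in muscle, and none was called after adjustment.

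**Figure D5:**
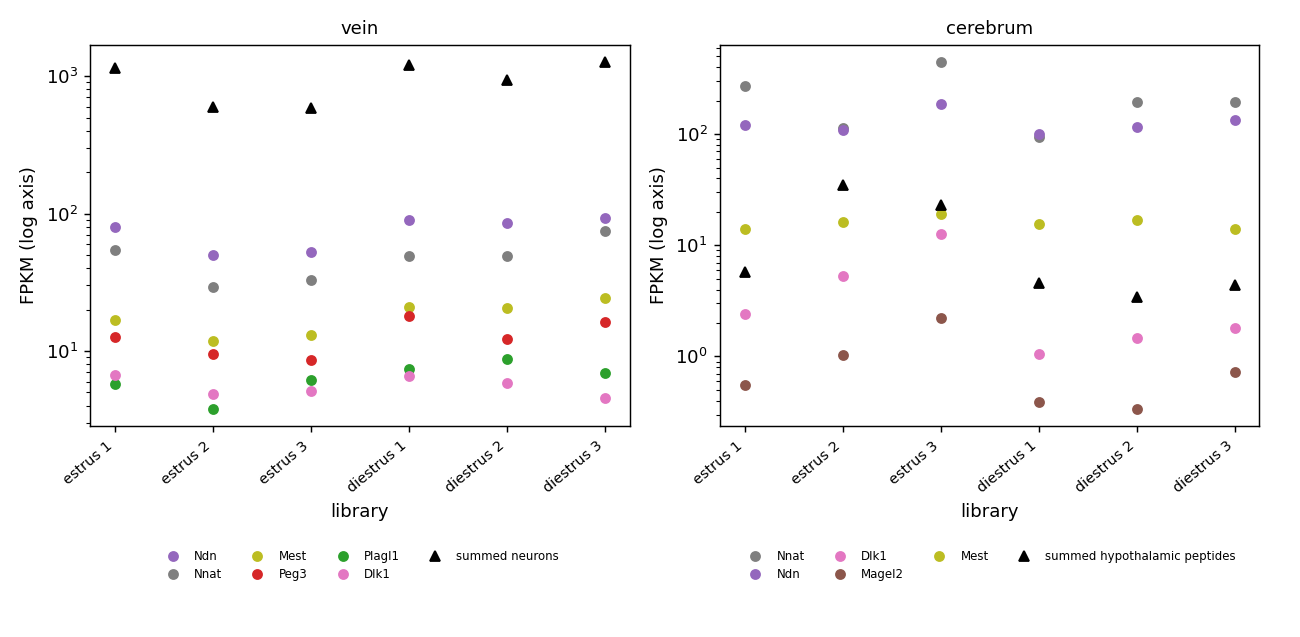
FPKM on a log axis of some of the genes and of summed marker lists (triangles) in each library of vein and cerebrum. In vein, estrus 2 and estrus 3 hold the lowest neuron sums, 597 and 586, and in cerebrum estrus 2 and estrus 3 hold the highest sums of hypothalamic peptide genes, 35.0 and 23.0.

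Other imprinted genes between the phases gave 0 calls in 469 tests by limma, and the lowest adjusted p was 0.0867. An unadjusted p of at most 0.05 was found in 44, or 9.38%, near the 7.84% of all tests. In one fit of all 90 libraries 3 of the 98 tests of the 9 genes were called, Dlk1 in brown adipose tissue and cerebrum and Mest in womb, and with library weights 2, Plagl1 and Ndn in stomach. The Dlk1 call in brown adipose tissue includes the 0 from the library of few reads, and the weights stopped before convergence in stomach. Shares of all genes called in these 2 settings are not given here, so the counts have no background beside them. For the other imprinted genes, log2 fold changes in the main fits ran from -1.37, for Kcnq1 in duodenum, to 1.67, for Peg10 in womb. Peg10 in womb (1.67 ± 0.44, adjusted p = 0.897 by limma) did not overlap between phases and was called in the one fit. Among the neighbours described above, an unadjusted p of at most 0.05 was found for Phlda2 in stomach (log2 fold change 1.11 ± 0.38), Usp29 in hypothalamus (-0.16 ± 0.04), Zim1 in cerebrum (0.50 ± 0.20), Copg2 in brown adipose tissue (0.87 ± 0.28) and duodenum (-0.51 ± 0.15) and Cobl in hypothalamus, liver, vein and womb (-1.31 ± 0.48 in womb). Other genes of the Cdkn1c and Kcnq1 cluster had such a p as well, Nap1l4 in brown adipose tissue, Tssc4 in hypothalamus, Cd81 in duodenum and muscle, and in duodenum Kcnq1 (-1.37 ± 0.51) and Ascl2 (-1.34 ± 0.55), which are named here after their values were seen.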

How the data were processed

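RNA of 15 tissues was sequenced on the BGISEQ-500 with 3 libraries per tissue and phase. Per the labels and the study's methods, the authors filtered reads with SOAPnuke, aligned them with Bowtie2 2.2.5 to GRCm38.p5, estimated abundance with RSEM 1.2.8 and deposited FPKM for 20414 genes in one table, without counts. Strand use is not given in the sources used here. Groups were taken from the sample labels, with an age of 10 weeks. Replicates measure only the spread between these libraries, and, by the study's text, the tissues of a phase were dissected from the same 3 mice, so that libraries of different tissues are not independent, which the tests between tissues do not model. Reads per library were approximated from steps between values of 931 short genes. Values were whole within 0.2 reads for 50.6% to 69.2% in 89 libraries, so true counts were not recovered and no count test was used.

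Values were put on a log2(FPKM + 1) scale, and a gene entered a test where its mean over the libraries compared was 1 FPKM or more. The package limma (version 3.58.1, R 4.3.3) was run with a trend on the mean and Benjamini-Hochberg adjustment over all tested genes, and calls needed an absolute log2 fold change of 1 and an adjusted p of 0.05. Tissue pairs carried phase as a covariate, and the interaction was an F test in a fit of 90 libraries with no fold limit. The labels do not say whether the replicate numbers pair the libraries. In none of the checks was every correlation of deviations over 0.1. Low correlations between tissues cannot show that libraries come from different mice, so the question stays undecided. The main tests used no pairing. Neighbouring tissues in the order of means were compared by exact two-sided permutation tests of log2(FPKM + 1). Fold changes on this scale understate the change of low genes. The procedure was tested on simulated data. Python 3.11.15 was used with scipy 1.17.1, matplotlib 3.10.9, numpy 2.4.6 and pandas 2.3.3. The genes, lists and rules were chosen with earlier results of these data known. Alternatives changed the pseudocount, filter, scaling, normalization, fold limit, model, replicate block and libraries. Phase values were named where the unadjusted p was at most 0.05, and other imprinted genes where they were neighbours, were called between phases, or were the 3 most different among those called in a pair. The hypothalamic peptide list, the searched motif of NRF1 and the alternatives without the 9 libraries that stand apart, or without each of the 90 in the interaction, were chosen after seeing the data. Promoters come from RefSeq, build GRCm38.p6. Some of the genes most like a member are not reported here.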

Additional observations from a re-analysis of the deposited data

Results flagged for a closer look

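In 98 sets of 6 libraries, one gene in one tissue each, 11 had a library farther from the others than the limit of Dixon's test at the 95% level. Chance flags about 1 in 20 such sets, and a library can be flagged for several genes. Aorta estrus 1 was flagged for Grb10, at 19.23 FPKM, and Plagl1, at 4.62. Hypothalamus estrus 2 was flagged for Nnat, at 1002.75, and Mest, at 25.77. White adipose tissue diestrus 2 was flagged as low for Peg3, at 2.31, and Nnat, at 65.63, and white adipose tissue estrus 1 as high for Plagl1, at 36.88. Womb estrus 3 was flagged for Nnat, at 40.7, heart estrus 3 for Plagl1, at 4.65, vein estrus 2 as low for Grb10, at 15.69, and brown adipose tissue estrus 3, the library of few reads, for Dlk1 at 0.

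The phase difference of Dlk1 differed between tissues by the interaction test (adjusted p = 0.0161 by limma). Dlk1 was higher in estrus in 3 of 3 cerebrum libraries and lower in 3 of 3 brown adipose libraries than in any diestrus library, 1 of the latter being the library of few reads. Leaving out each of the 90 libraries in turn gave adjusted p of 0.000556 to 0.0542, and it was called without 88 of them. The adjusted p was 0.0542 without cerebrum estrus 3 and 0.118 without the 9 libraries that stand apart.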

How the results depend on the processing

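Of the phase tests of the 9 genes, 0 were called under the other pseudocount, filter, rescaling, quantile normalization, replicate block, fold limit and left-out libraries, against 3 in one fit of all 90 libraries and 2 with array weights, which stopped before convergence in 5 of 15 tissues. For other imprinted genes these counts were 0, 7 and 1. Shares of all genes called in the one fit and with array weights are not given here. Between tissues, quantile normalization left 3 of 5 calls in aorta against vein, and 5 genes were called in heart against muscle without a fold limit. It also turned Cdkn1c in hypothalamus against cerebrum to -0.04 and Ndn in heart against muscle to -0.37, neither of them called. The interaction gave 0 calls at a pseudocount of 0.1, and 0 to 4 when libraries were left out, with 1, Peg3 in place of Dlk1, without the 9 libraries that stand apart. Separated neighbours in tissue order numbered 26, 0 to 20 without a replicate of all tissues, where fewer libraries raise the smallest p a test can give, and 24 without brown adipose tissue estrus 3. Without the 9 libraries the tissue pairs gave 7, 7, 5, 6 and 2 calls and the phases 0. Except where stated, the cause was not tested.

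The replicate block gave 0 calls between phases, 7, 5, 6, 5 and 2 in the 5 tissue pairs and 1 in the interaction, and so changed no call count. Whether the numbers pair the libraries could not be decided, since low correlations between tissues cannot show different mice. For hypothalamus and cerebrum, same-numbered libraries correlated by 0.019 to 0.221. Depth, known only approximately, limits low values, above all in brown adipose tissue estrus 3.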
